A study of Homo sapiens with 6 samples.

Results

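The genes described here are 10 markers and regulators of the mesenchymal state of neuroblastoma, taken by name: PRRX1, SNAI2, TWIST1, VIM, FN1, CD44, YAP1, WWTR1, FOSL1 and RUNX1. All 10 were found among the 19970 protein-coding genes of chromosomes 1 to 22 and X in the RefSeq table of GRCh38.p14. The study profiled 3 transcription factors by CUT&Tag in SK-N-BE(2) cells, a line long established from a human neuroblastoma, with MYCN amplification and a neuronal, adrenergic character. In CUT&Tag an antibody brings a transposase to the factor, and the transposase cuts and tags the DNA beside it. There were 2 libraries with a HAND2 antibody, 2 labelled with a MEIS2 antibody, 1 with a TCF4 antibody and 1 with a non-specific IgG. All 6 came from the same line, with no treatment, genotype or time named in the labels, and no peak list of the IgG library was analysed here. No label states that the replicates came from separate cultures, so their agreement may be technical, and TCF4 has no replicate.

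Neuroblastoma cells occur in an adrenergic state, close to sympathetic neuroblasts, and in a mesenchymal state, close to migrating neural crest cells. The mesenchymal state is marked by the homeobox factor PRRX1, by the factors SNAI2 and TWIST1 that drive epithelial-mesenchymal transition, by the intermediate filament vimentin (VIM), by the matrix protein fibronectin (FN1) and by the hyaluronan receptor CD44. YAP1 and WWTR1 (TAZ) are the co-activators that the Hippo pathway restrains, FOSL1 is a FOS-family subunit of AP-1, and RUNX1 is a Runt-domain factor. HAND2 and TCF4 are basic helix-loop-helix factors that bind E-boxes, and MEIS2 is a TALE homeodomain factor. Peak lists show where a factor was found, and do not show whether the gene is expressed.

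The 2 HAND2 lists gave 30410 and 33484 peaks, the MEIS2 lists 9595 and 13871, and the TCF4 list 30704. The fold of a peak is the authors' value at its summit, the base with the highest pile-up of fragments, over the local background from the control. Folds are read within a library, because each list was called on its own and the inferred depths differed. These depths were inferred from the spacing of the local backgrounds, not from counts of reads. They were 0.248 to 0.932 of the IgG depth, lowest for the MEIS2 libraries. The HAND2 lists overlapped each other at 78.5% and 71.6% of their peaks. Those of MEIS2 did so at 24.6% and 16.8%, and MEIS2 replicate 2 is the one list with the word Flag in its peak names, in all 13871. The labels give both MEIS2 libraries the same antibody and do not explain the word, so whether MEIS2 replicate 2 was made like replicate 1 is not known, and its values are those of the library labelled MEIS2 replicate 2. Results that rest on MEIS2 replicate 2 are therefore given with and without it.

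At the ends of the 10 genes, HAND2 was present at SNAI2, VIM, CD44 and FOSL1, MEIS2 in both replicates at SNAI2 and VIM, and no factor at PRRX1, FN1, YAP1 or WWTR1. A gene counts as occupied where a peak overlaps the 1 kb on either side of its lower- or higher-coordinate end. Either end counts, whether or not it is the start. For SNAI2, TWIST1 and FOSL1 no start was listed, so a peak at an end may not be at a promoter. HAND2 replicate 1 occupied 4 of the 10 genes, where 20.6% of all protein-coding genes had such a peak, and HAND2 replicate 2 occupied 6, against 27.8%. The 4 genes occupied at the same end in both HAND2 replicates compare with 18.7% of all genes. MEIS2 replicate 1 occupied 3 (SNAI2, TWIST1 and VIM) against 11.5%, and MEIS2 replicate 2 occupied 3 (SNAI2, VIM and RUNX1) against 2.18%. MEIS2 occupied SNAI2 and VIM in both replicates, 2 of 10 against 0.946%, at SNAI2 through different peaks of the same end. The SNAI2 peak of MEIS2 replicate 2 had 11 fragments, a −log10 q of 4.46 and its summit 1159 bp from the end. It is lost with 500 bp windows, with summits within 1 kb or with −log10 q of 5 or more, while VIM is kept. TCF4 was at an end of 5 genes (SNAI2, TWIST1, VIM, CD44 and FOSL1), and with a background of 53.9% that count is no more than TCF4's share of all genes. SNAI2 and VIM had all 5 libraries at the same end, SNAI2 only with that MEIS2 replicate 2 peak. This state is shared by 0.606% of all genes. No library had a peak at 4 of the 10 genes, against 42.7% of all genes. With counts this small, 1 gene more or fewer moves a share by 10 percentage points.

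**Figure D1:**
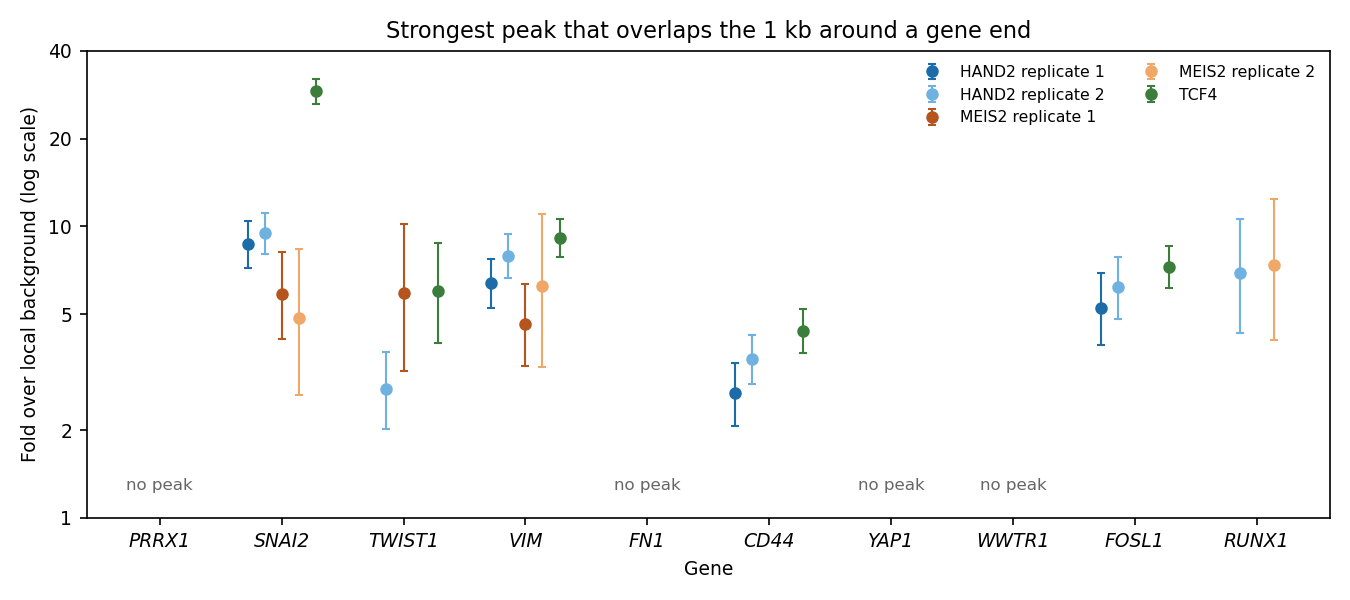
Fold over the local background (log axis) of the strongest peak of each library that overlaps the 1 kb around an end of each gene, with exact 95% Poisson intervals of the pile-up as bars, which cover counting error only. SNAI2 carries the highest value, 29.0 in the TCF4 library, 4 genes have no such peak, and the MEIS2 replicate 2 point of VIM (6.23) is at the other end of the gene from the rest.

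Transcript starts inside the genes add sites that the gene ends miss. The RefSeq promoter table lists a start for 7 of the 10 genes (SNAI2, TWIST1 and FOSL1 have no entry) and for 15811 of 19970 protein-coding genes. Within 1 kb of a listed start, both HAND2 replicates had a peak at VIM, CD44 and RUNX1, 3 of 7 genes, against 20.5% and 27.9% of all genes with a start. TCF4 had one at VIM, CD44, WWTR1 and RUNX1, 4 of 7 against 55.7%, and each MEIS2 replicate at VIM alone, 1 of 7 against 11.7% and 2.04%. RUNX1 and WWTR1 thus gained sites at internal starts, 160603 and 66763 bp from the higher-coordinate end of the gene. No library had a peak within 1 kb of the listed starts of PRRX1, FN1 and YAP1, nor of the outer WWTR1 start.

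The 250 bases before a start are shown for the 4 starts that peaks reached and for the YAP1 start and the outer WWTR1 start, which none reached and whose windows hold an E-box. The sequences are from RefSeq, build GRCh38.p14, written 5′ to 3′ on the strand of the gene, and capitals mark the E-box CANNTG, which reads the same on both strands. VIM lies on the plus strand at chr10:17227991-17228240, CD44 on the plus strand at chr11:35138921-35139170, RUNX1 on the minus strand at chr21:34888700-34888949, and the inner WWTR1 start on the minus strand at chr3:149658026-149658275. YAP1 lies on the plus strand at chr11:102110197-102110446 and the outer WWTR1 start on the minus strand at chr3:149703274-149703523.
VIM: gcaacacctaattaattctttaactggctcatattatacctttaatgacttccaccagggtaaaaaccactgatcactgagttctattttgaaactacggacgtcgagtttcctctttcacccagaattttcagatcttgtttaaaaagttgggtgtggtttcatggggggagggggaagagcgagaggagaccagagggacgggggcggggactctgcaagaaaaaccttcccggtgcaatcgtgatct
CD44: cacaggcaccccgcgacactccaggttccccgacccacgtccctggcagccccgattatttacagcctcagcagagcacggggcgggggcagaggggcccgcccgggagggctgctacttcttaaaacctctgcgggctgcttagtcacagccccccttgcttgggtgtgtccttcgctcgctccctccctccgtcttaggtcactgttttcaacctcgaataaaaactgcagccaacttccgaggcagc
RUNX1: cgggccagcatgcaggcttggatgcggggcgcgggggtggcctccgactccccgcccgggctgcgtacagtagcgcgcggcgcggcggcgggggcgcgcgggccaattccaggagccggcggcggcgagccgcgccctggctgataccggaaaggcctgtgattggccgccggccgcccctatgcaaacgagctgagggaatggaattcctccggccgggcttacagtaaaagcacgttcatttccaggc
WWTR1 inner: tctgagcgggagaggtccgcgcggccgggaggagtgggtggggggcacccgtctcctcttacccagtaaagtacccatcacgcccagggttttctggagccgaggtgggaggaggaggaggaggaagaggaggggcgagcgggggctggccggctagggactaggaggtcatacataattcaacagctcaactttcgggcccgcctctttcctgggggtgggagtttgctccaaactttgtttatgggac
YAP1: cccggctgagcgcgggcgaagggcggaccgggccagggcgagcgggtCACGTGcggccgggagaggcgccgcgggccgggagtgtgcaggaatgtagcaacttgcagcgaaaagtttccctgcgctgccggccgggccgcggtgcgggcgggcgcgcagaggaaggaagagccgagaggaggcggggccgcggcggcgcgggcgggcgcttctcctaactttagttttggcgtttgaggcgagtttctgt
WWTR1 outer: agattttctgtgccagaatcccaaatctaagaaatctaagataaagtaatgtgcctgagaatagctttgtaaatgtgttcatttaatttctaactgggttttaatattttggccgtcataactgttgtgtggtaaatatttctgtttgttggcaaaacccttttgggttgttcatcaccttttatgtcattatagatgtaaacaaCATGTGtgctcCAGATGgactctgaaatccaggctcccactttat

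None of the 4 windows reached by peaks holds an E-box. Of the 4 windows that no peak reached, YAP1 holds CACGTG 203 bases before its start, the outer WWTR1 window holds CATGTG and CAGATG, and PRRX1 and FN1 hold none. Over all 22131 listed starts of protein-coding genes, 58.1% have at least 1 E-box in these 250 bases, 13.7% have CAGCTG, 10.2% have CAGATG or its reverse complement CATCTG, 1.78% have CATATG and 7.37% have CACGTG. The MEIS hexamer TGACAG (12.1% of all starts) and its variant TGTCAA (6.12%), and the AP-1 site TGANTCA (5.35%), each searched on both strands, occur in none of these windows, nor in those of PRRX1 and FN1. The windows are rich in G and C at CD44 (62.4%), inner WWTR1 (62.0%), RUNX1 (71.2%) and YAP1 (72.0%) and less so at VIM (46.0%) and outer WWTR1 (35.2%), beside a median of 62.0% over all starts. Most summits at these starts lie outside the windows: at VIM 541 to 818 bp downstream of the start in the 5 libraries, at CD44 453 to 740 bp downstream in 3. A missing E-box in the window therefore says nothing of the bases under those summits. The exception is HAND2 replicate 2 at RUNX1, whose summit lies 183 bp upstream of the start, inside the window.

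SNAI2, which encodes the zinc-finger repressor SLUG (chromosome 8, 48917598 to 48921429), carried the highest fold at any gene end of the 10. Beyond its higher-coordinate end, HAND2 replicates 1 and 2 had folds of 8.66 (95% counting interval 7.18 to 10.4) and 9.49 (8.04 to 11.1). MEIS2 replicate 1 had 5.88 (4.12 to 8.15) there and TCF4 29.0 (26.2 to 32.0). The 4 summits, of 3 factors, all lie 284 to 342 bp beyond the gene end. The TCF4 peak is higher than 98.2% of the TCF4 list, with 392 fragments at the summit. The HAND2 peaks are higher than 78.7% and 84.7% of their lists, and that of MEIS2 replicate 1 is near the middle of its list at 49.6%.

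A second SNAI2 site lies inside the gene, 2592 to 2672 bp from its lower-coordinate end. HAND2 had folds of 9.37 (6.38 to 13.3) and 7.11 (4.74 to 10.3) in replicates 1 and 2 at this place. MEIS2 had 8.03 (4.55 to 13.3) and 4.86 (2.63 to 8.37), the latter on only 11 fragments, and no TCF4 summit was called. All 5 libraries are thus counted at the same SNAI2 end through 2 separate regions, and MEIS2 replicate 2 is in the inner one alone. HAND2 alone had folds of 4.39 and 5.14 at 2120 and 2119 bp beyond the higher-coordinate end, and of 6.50 and 4.44 at 27123 and 27045 bp below the gene. A HAND2 replicate 2 peak of 4.72 and a MEIS2 replicate 2 peak of 4.53 in this window overlapped no other library. No other protein-coding gene lies within 50 kb of SNAI2.

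TWIST1, a basic helix-loop-helix factor (chromosome 7, 19113047 to 19117636), had lower highest folds than SNAI2 for HAND2 and TCF4, but not for MEIS2. Its best shared site lies 4529 to 4565 bp below the lower-coordinate end, where HAND2 replicates 1 and 2 had 4.78 (3.82 to 5.91) and 5.14 (4.20 to 6.25), MEIS2 replicate 1 had 8.71 (6.56 to 11.3) and TCF4 had 4.14 (3.23 to 5.23). A stronger TCF4 summit of 7.29 lies 6487 bp below the same end and has no summit of another library beside it, although the broad HAND2 and MEIS2 replicate 1 peaks extend over it. At the lower-coordinate end itself, MEIS2 replicate 1 had 5.89 (3.19 to 10.2) and TCF4 6.02 (3.98 to 8.78), while neither HAND2 library had a peak. At the higher-coordinate end HAND2 had 3.08 and 2.77, of which only the replicate 2 peak reached the 1 kb window, MEIS2 replicate 1 had 4.63 and TCF4 3.70. These HAND2 folds are low in their lists, above 15.1% and 12.6% of peaks. MEIS2 replicate 2 had 4 other summits, 9784 to 22814 bp below the gene, on 7 to 11 fragments each, and none of them overlapped another library.

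PRRX1 (chromosome 1, 170662768 to 170739421), a core homeobox factor of the mesenchymal state, had no HAND2, TCF4 or MEIS2 replicate 1 peak in the gene or within 50 kb. MEIS2 replicate 2 had 2 summits inside the gene, with folds of 10.8 (6.61 to 16.7) and 8.50 (4.90 to 13.9) on 18 and 14 fragments. Without MEIS2 replicate 2, PRRX1 has no peak at all. It was the only one of the 10 genes without a HAND2 summit in this window.

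**Figure D2:**
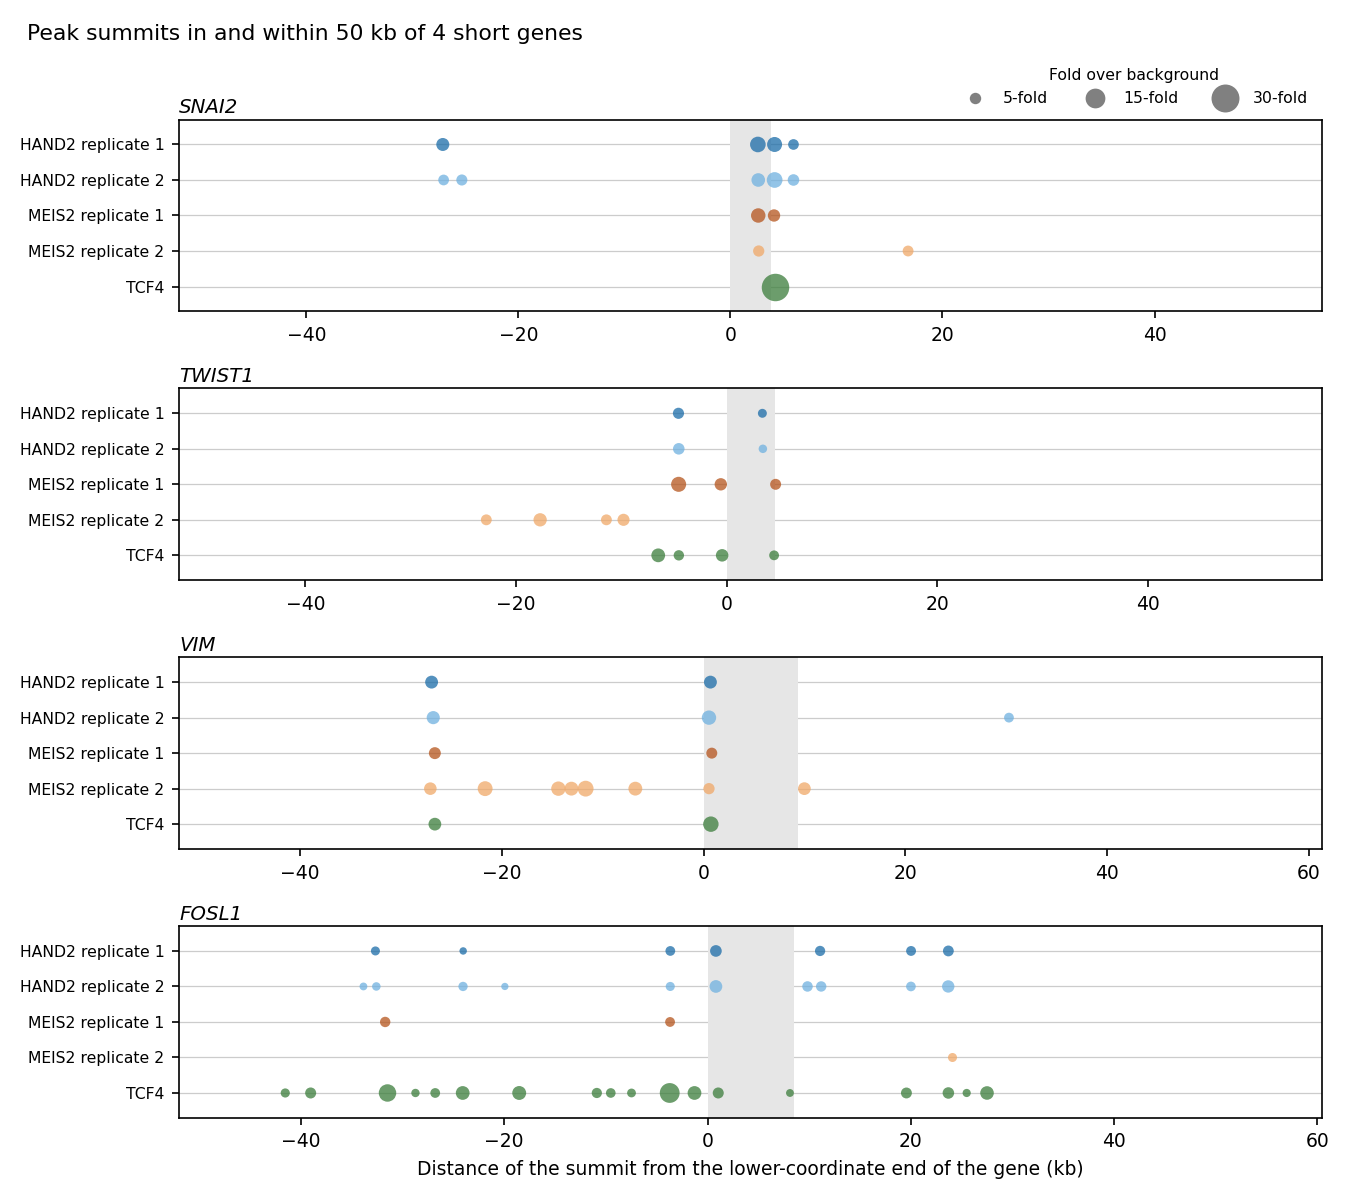
Peak summits by library in and within 50 kb of SNAI2, TWIST1, VIM and FOSL1, as distance in kb from the lower-coordinate end of the gene. The grey band is the gene and the area of a point grows with fold. The summits of HAND2, MEIS2 replicate 1 and TCF4 align at the SNAI2 end, 4115 to 4173 bp from the lower-coordinate end, and those of all 5 libraries align at the start of VIM.

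VIM, the vimentin gene (chromosome 10, 17228241 to 17237593), carried all 5 libraries at its start, with summits in the first 818 bp of the gene, which the antisense gene VIM-AS1 overlaps. HAND2 replicates 1 and 2 had 6.38 (5.23 to 7.70) and 7.92 (6.63 to 9.38), MEIS2 replicates 1 and 2 had 4.64 (3.31 to 6.36) and 4.88 (3.49 to 6.66), and TCF4 had 9.15 (7.82 to 10.6). The pile-ups were 106, 132, 37, 38 and 166 fragments in the same order. Of the MEIS2 replicate 2 peaks at these gene ends, that of the VIM start has the most fragments. The MEIS2 folds there are nonetheless low in their lists, above 30.1% and 18.6% of peaks in replicates 1 and 2. Their backgrounds were 29.0 and 19.0 IgG fragments. The HAND2 folds are above 64.5% and 78.9% of their lists and that of TCF4 above 80.2%. The HAND2, MEIS2 replicate 1 and TCF4 peaks begin 60 to 92 bases before the start and reach 1240 to 2425 bases into the gene, and the MEIS2 replicate 2 peak begins 595 bases before it. Without MEIS2 replicate 2 the other 4 libraries still share this site.

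A second place with all 5 libraries lies 26634 to 27084 bp below VIM, inside the neighbouring gene TRDMT1, an RNA methyltransferase gene. HAND2 had 6.37 and 6.63 at this site, MEIS2 5.49 and 6.07, and TCF4 6.25. The local background there is high, at 14.7 to 32.0 IgG fragments (the background in units of 1 scaled IgG fragment). Between these sites MEIS2 replicate 2 alone had 5 summits of 7.37 to 9.63, 6761 to 21652 bp below VIM, on 12 to 23 fragments, and 1 more of 6.23 beyond the higher-coordinate end. No other library had a peak at any of these 6.

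FN1, the fibronectin gene (chromosome 2, 215360865 to 215436068), had no HAND2, TCF4 or MEIS2 replicate 1 summit within the gene. HAND2 had 8.43 (5.61 to 12.2) and 8.50 (5.79 to 12.1) in replicates 1 and 2, 21411 and 21382 bp below the lower-coordinate end, with a TCF4 peak of 3.68 in the same region. A further site with HAND2 at 3.52 and 3.90, MEIS2 replicate 1 at 3.50 and TCF4 at 13.3 (11.7 to 15.2) lies 48651 to 48740 bp below FN1. Both sites are inside ATIC, a purine synthesis gene, so that ATIC, not FN1, is the nearest protein-coding gene to both. The single summit inside FN1 was in MEIS2 replicate 2, 4.75 on 9 fragments, at a position that ATIC also covers.

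CD44 (chromosome 11, 35139171 to 35232402), the hyaluronan receptor, had most of its HAND2 peaks within the gene and away from its start. At the start HAND2 had 2.68 (2.07 to 3.40) and 3.51 (2.88 to 4.25), above only 8.04% and 28.5% of the peaks of the lists, and TCF4 had 4.38 (3.68 to 5.19), with no MEIS2 peak. The pile-ups there were 65, 104 and 134 fragments over a background of 30, 31.0 and 38.0 IgG fragments. Without peaks of 30 or more IgG fragments, HAND2 replicate 2 occupied 5 genes and TCF4 4, CD44 being the gene lost from both. The CD44 peak of HAND2 replicate 1 lay just under this limit and was kept. CD44 then no longer counts among the 4 genes with HAND2 at the same end in both replicates. The strongest HAND2 site lies 27734 and 27548 bp into the gene, with 18.2 (14.7 to 22.4) and 11.2 (9.16 to 13.5), and MEIS2 replicate 2 had 4.87 (3.07 to 7.40) there. No TCF4 or MEIS2 replicate 1 peak overlapped it.

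A second intragenic CD44 site, 84393 to 84398 bp from the start, had summits of 4 libraries within 5 bp. All 4 peaks there also begin at the same base, 35223374, and are 378 to 394 bp wide. Why they share this edge was not tested. HAND2 had 9.11 (7.25 to 11.3) and 10.4 (8.51 to 12.5) at this site, MEIS2 replicate 1 had 11.8 (8.62 to 15.8) and TCF4 7.69 (6.05 to 9.64). It is the highest MEIS2 replicate 1 fold around any of the 10 genes, above 88.9% of that list. Further, weaker HAND2 sites were in both replicates, at 5.28 and 5.56 close to the start (2464 and 2543 bp) and at 5.87 and 5.03 further in (19673 and 19709 bp). A peak of 11.7 in HAND2 replicate 1, 17771 bp from the start, overlapped MEIS2 replicate 1 (6.59) but no peak of HAND2 replicate 2, so it was seen in 1 HAND2 library only.

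YAP1 (chromosome 11, 102110447 to 102233424) and PRRX1 had the fewest peaks of the 10 genes, 2 each. In and around YAP1 the 5 lists hold 1 site, in HAND2 alone, at 4.45 (3.01 to 6.36) and 5.23 (3.67 to 7.25), 23237 bp beyond its higher-coordinate end in replicate 2. Neither the gene nor its start had a peak of any library.

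WWTR1 (chromosome 3, 149517235 to 149724788), the paralogous co-activator gene, had 1 HAND2 site in both replicates. It lies 58692 and 58658 bp from the lower-coordinate end, inside the gene, with 6.95 (5.20 to 9.12) and 8.10 (6.30 to 10.3), and MEIS2 replicate 2 had 9.98 (7.26 to 13.4) there on 42 fragments. HAND2 replicate 1 and MEIS2 replicate 1 shared another site at 5.31 and 6.88, 36701 and 36611 bp from the same end. TCF4 had a single peak, 2.83 (2.19 to 3.60), 407 bp upstream of the inner start, which is above only 9.59% of the TCF4 list. Of the 6 MEIS2 replicate 2 summits around WWTR1, 5 overlapped no other library. The highest of them, 12.5 (7.93 to 18.8), lies 742 bp from TM4SF4 and 43280 bp from WWTR1.

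RUNX1 (chromosome 21, 34787801 to 35049302) held the strongest HAND2 peak around any of the 10 genes. It lies inside the gene, 26930 and 26906 bp from the lower-coordinate end, with 29.8 (24.4 to 36.2) in replicate 1 and 20.7 (16.4 to 25.8) in replicate 2, above 98.2% and 96.9% of the peaks of the lists. A MEIS2 replicate 2 peak of 4.49 overlapped the region, and no TCF4 or MEIS2 replicate 1 peak did. A second HAND2 site of 13.8 (10.2 to 18.3) and 8.61 (6.29 to 11.5), 48094 and 47839 bp from the same end, lies in a region that also holds MEIS2 replicate 2 at 6.66 and TCF4 at 4.05 (2.90 to 5.52). MEIS2 replicate 1 had no summit in or within 50 kb of RUNX1.

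At the internal RUNX1 start, whose upstream sequence is printed above, TCF4 had 7.13 (5.74 to 8.76) with its summit 392 bp upstream. HAND2 replicates 1 and 2 had 2.93 (2.02 to 4.12) and 3.15 (2.37 to 4.11), with summits 164 bp downstream and 183 bp upstream. HAND2 was low in its lists at this start, above 12.4% and 20.5% of peaks. Other intragenic HAND2 peaks ranged from 3.71 (above 26.9% of its list) and 4.61 (48.8%), 31594 and 31713 bp from the lower-coordinate end, over 4.81 (46.0%) in replicate 1 alone and 7.54 (76.8%) in replicate 2 alone, up to the strong sites given above. TCF4 had its highest RUNX1 fold at the start. Near the higher-coordinate end, HAND2 replicate 2 had 6.91 (4.30 to 10.6) and MEIS2 replicate 2 had 7.37 (4.08 to 12.4), on 19 and 12 fragments. HAND2 replicate 1, MEIS2 replicate 1 and TCF4 had no peak at this site.

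**Figure D3:**
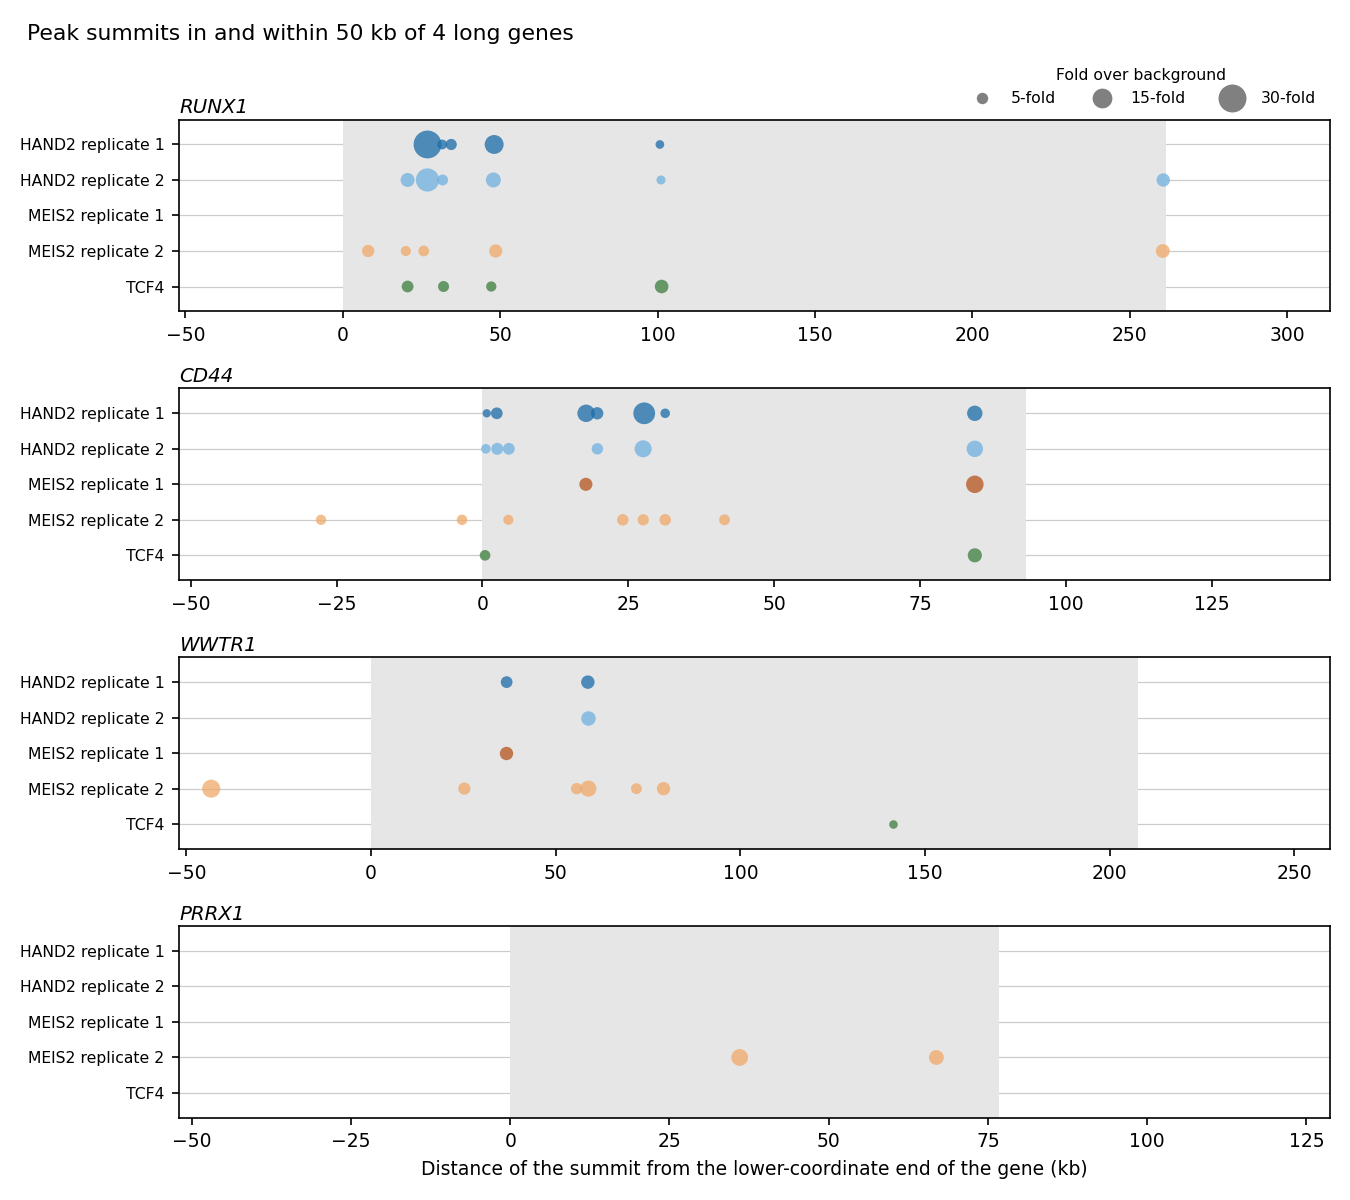
Peak summits by library in and within 50 kb of RUNX1, CD44, WWTR1 and PRRX1, as distance in kb from the lower-coordinate end of the gene. The grey band is the gene and the area of a point grows with fold. No TCF4 peak overlaps the strongest HAND2 site of RUNX1 (29.8 and 20.7) or of CD44 (18.2 and 11.2), each inside the gene. The next RUNX1 site, with HAND2 at 13.8 and 8.61, has TCF4 at 4.05 in the same region. PRRX1 has points of MEIS2 replicate 2 alone.

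FOSL1 (chromosome 11, 65892049 to 65900545) differs from the others in its surroundings: 10 other protein-coding genes lie in or overlap its 50 kb window, against 0 to 3 for the other members. HAND2 had 5.24 (3.91 to 6.90) and 6.21 (4.82 to 7.87) in replicates 1 and 2, 826 and 827 bp inside the lower-coordinate end. TCF4 had 4.67 (3.44 to 6.19) at 1055 bp inside that end and 7.27 (6.13 to 8.55) at 1282 bp below it, the latter with its summit in CCDC85B. The HAND2 and TCF4 peaks of that end merge into a single region, whose strongest summit is the one in CCDC85B. At the higher-coordinate end TCF4 alone had 2.38 (1.60 to 3.42). Which of these ends is the FOSL1 start was not listed. Neither MEIS2 library had a peak at a FOSL1 end.

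Around FOSL1 the TCF4 list holds 18 summits, of which 2 are inside the gene. The highest, 15.1 (13.6 to 16.7) at 3721 bp below FOSL1, lies in FIBP, where HAND2 had 3.66 and 3.19 and MEIS2 replicate 1 had 3.71. Another of 11.7 lies in MUS81, a DNA repair nuclease gene, with HAND2 at 3.13 and 2.79 and MEIS2 replicate 1 at 4.15 in the same region. The HAND2 folds around FOSL1 stay between 2.03 and 6.21, and the background reaches 44.0 IgG fragments. Of the 19 regions in the FOSL1 window, 11 were in 1 library only.

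Per 100 kb of gene and flanks, the 10 genes had a median of 1.61 and 1.79 HAND2 summits in replicates 1 and 2, beside 0.797 and 0.903 over all protein-coding genes. For TCF4 the median was 1.07 beside 1.37. For MEIS2 it was 0.803 and 1.65, beside 0 and 0, since most genes have no MEIS2 summit. FOSL1 had the highest density for HAND2 (6.45 and 9.22) and TCF4 (16.6), SNAI2 followed for HAND2 at 3.85 and 4.82 and then CD44 at 3.62 and 3.11, while PRRX1 (0 and 0), YAP1 (0.448 and 0.448) and WWTR1 (0.650 and 0.325) lay below the median of all genes. At least 1 HAND2 summit was in or near 9 of the 10 genes in each replicate, where 60.2% and 64.7% of all genes have one. MEIS2 replicates 1 and 2 had one at 7 and 9 of the 10, against 39.3% and 29.8%, and TCF4 at 8, against 76.0%. The window grows with the gene, from 104 kb for SNAI2 to 362 kb for RUNX1, so that counts per gene are not on 1 scale.

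**Figure D4:**
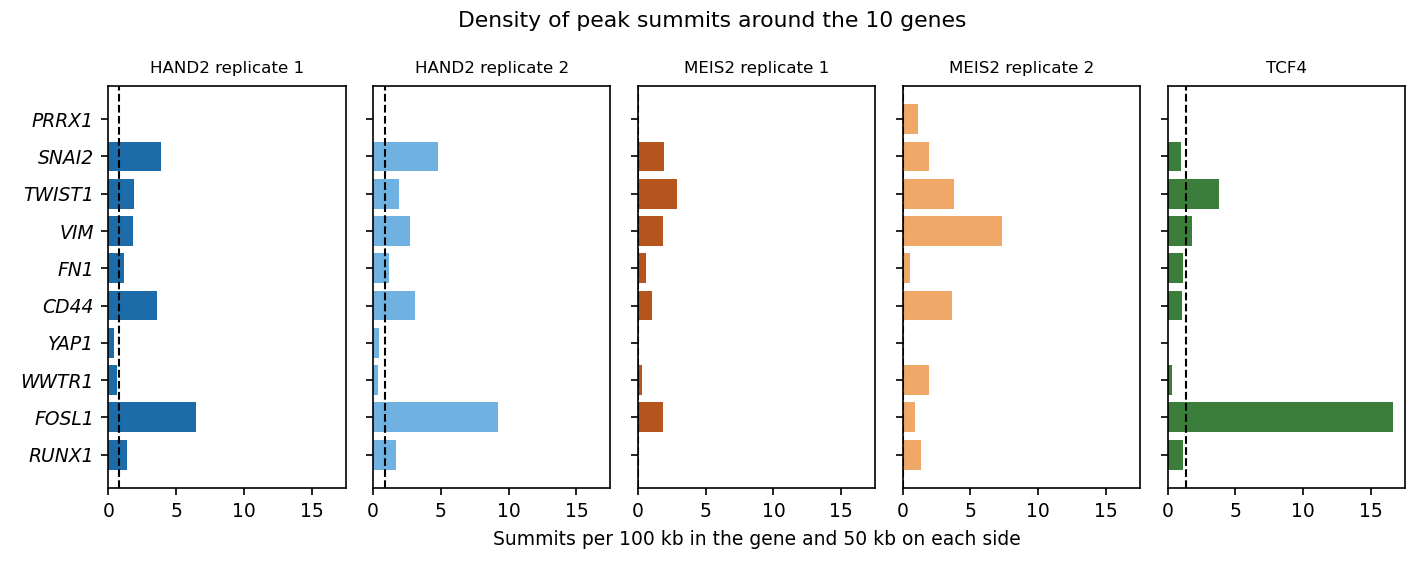
Summits per 100 kb of gene plus 50 kb on each side, for each gene (bars) and library (panels). Dashed lines are the medians over all protein-coding genes, which are 0 for both MEIS2 libraries. FOSL1 has the longest bars for HAND2 and TCF4, and VIM the longest for MEIS2 replicate 2, at 7.32.

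Recurrence between replicates around these genes was high for HAND2 and low for MEIS2, as it was in the whole lists. Of 32 HAND2 replicate 1 and 36 HAND2 replicate 2 summits in the windows, 28 and 28 belonged to peaks that overlap the other replicate, beside 78.5% and 71.6% of the lists. Of 13 MEIS2 replicate 1 and 36 MEIS2 replicate 2 summits, 3 and 3 did, beside 24.6% and 16.8%. They lay at SNAI2, at the VIM start and at the site below VIM inside TRDMT1. All 13 MEIS2 replicate 1 peaks overlapped some other library, and in the whole of that list only 5.59% overlapped none. Of the 36 MEIS2 replicate 2 peaks, 24 (66.7%) overlapped none, beside 63.4% of that list. The median pile-up of the 36 was 12 fragments (range 7 to 42), and 25 had 14 or fewer, against medians of 48.0 and 52 for HAND2, 33.0 for MEIS2 replicate 1 and 55.0 for TCF4.

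Merged across libraries wherever peaks overlapped by at least 1 bp, the windows of the 10 genes held 75 regions. HAND2 was in 28 of them in both replicates, 37.3% beside 37.1% of the 61457 regions of the whole genome. HAND2 in both replicates together with TCF4 made up 18 (24.0% beside 19.7%), and 11 of these had a MEIS2 peak as well (14.7% beside 8.53%). Without MEIS2 replicate 1, 4 regions had all 3 factors, and without MEIS2 replicate 2, 9 did. The genome shares with a library left out were not computed, so these counts cannot be set beside 8.53%. All 5 libraries met in 2 regions, at the VIM start and at the site below VIM inside TRDMT1. MEIS2 replicate 2 alone accounted for 24 regions, 32.0% of those around the 10 genes beside 14.3% of all regions, and TCF4 alone for 11 (14.7% beside 21.6%). Among peaks with −log10 q of 5 or more, the MEIS2 replicate 2 share was 24.2% beside 12.6%. These shares come from 75 regions in 10 neighbourhoods and were not tested. FOSL1 contributes 19 of the 75 regions and CD44 12.

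Related genes were read from lists by role. Over all protein-coding genes, gene-end shares are 18.7% for HAND2 in both replicates and 53.9% for TCF4. They are 11.5% and 2.18% for MEIS2 replicates 1 and 2, and 0.946% for MEIS2 in both. Of 12 further mesenchymal and epithelial-mesenchymal transition factors, 4 had HAND2 at the same end in both replicates, and MEIS2 occupied none. The 4 were SOX9, a neural crest factor (lower of the HAND2 folds 6.27), SNAI1, the paralogue of SNAI2 (4.60), PRRX2, the paralogue of PRRX1 (3.03), and ZEB1 (2.34). TCF4 was at 4 of the 12, against 53.9% of all genes. ZEB2 and TWIST2, the paralogues of ZEB1 and TWIST1, were among those with no gene-end peak in any library.

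Of 19 partners, inhibitors and targets of YAP and TAZ, 3 had HAND2 in both replicates: the DNA-binding partner TEAD2 (6.88), the YAP-binding protein AMOTL1 (4.67) and the TEAD cofactor VGLL4 (2.42). TCF4 was at 11 of the 19. Both counts are close to the background of all genes. YAP1 and WWTR1 themselves had no gene-end peak, though TCF4 had a peak at the inner WWTR1 start. Among 9 AP-1 subunits and partners, HAND2 occupied 4 in both replicates, JUNB (13.9), FOS (3.95), FOSL2 (3.41) and JUND (1.82), and TCF4 8. MEIS2 replicate 1 had a peak at 5 of the 9, against 11.5% of all genes, and MEIS2 replicate 2 at none, against 2.18%. Of 4 genes related to RUNX1 (RUNX2, RUNX3, CBFB and RUNX1T1), HAND2 and TCF4 were at CBFB, which encodes the partner subunit of RUNX1 (8.24), and at RUNX1T1 (3.74), whereas RUNX2 and RUNX3 had no gene-end peak.

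Of 24 matrix, adhesion and cytoskeleton genes, 11 had HAND2 in both replicates and 16 had TCF4, against 18.7% and 53.9% of all genes. HAS2, the hyaluronan synthase whose product CD44 binds, led with 12.7, followed by the collagen gene COL5A1 (6.69), the annexin gene ANXA2 (4.85) and the nestin gene NES (4.71). ITGAV, an integrin subunit gene, was the one gene of these lists outside the adrenergic state with MEIS2 in both replicates. As a contrast, 12 of 16 adrenergic genes had HAND2 in both replicates, among them DBH (13.3), HAND1 (10.1), PHOX2A (9.44) and TBX2 (6.31). MEIS2 in both replicates was at 2 of these 16, HAND2 and ISL1, against 0.946% of all genes, and TCF4 at 14, against 53.9%. By share of genes, HAND2 in both replicates was at 75.0% of the adrenergic list, 45.8% of the matrix list, 44.4% of the AP-1 list, 40% of the 10 mesenchymal genes, 33.3% of the further mesenchymal factors and 15.8% of the YAP and TAZ list, beside the 18.7% of all genes given above. The difference between lists was not tested, and the list of genes related to RUNX1 has only 4 members. The lists were also chosen with earlier results of these data known, so their order cannot be read as an independent finding.

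**Figure D5:**
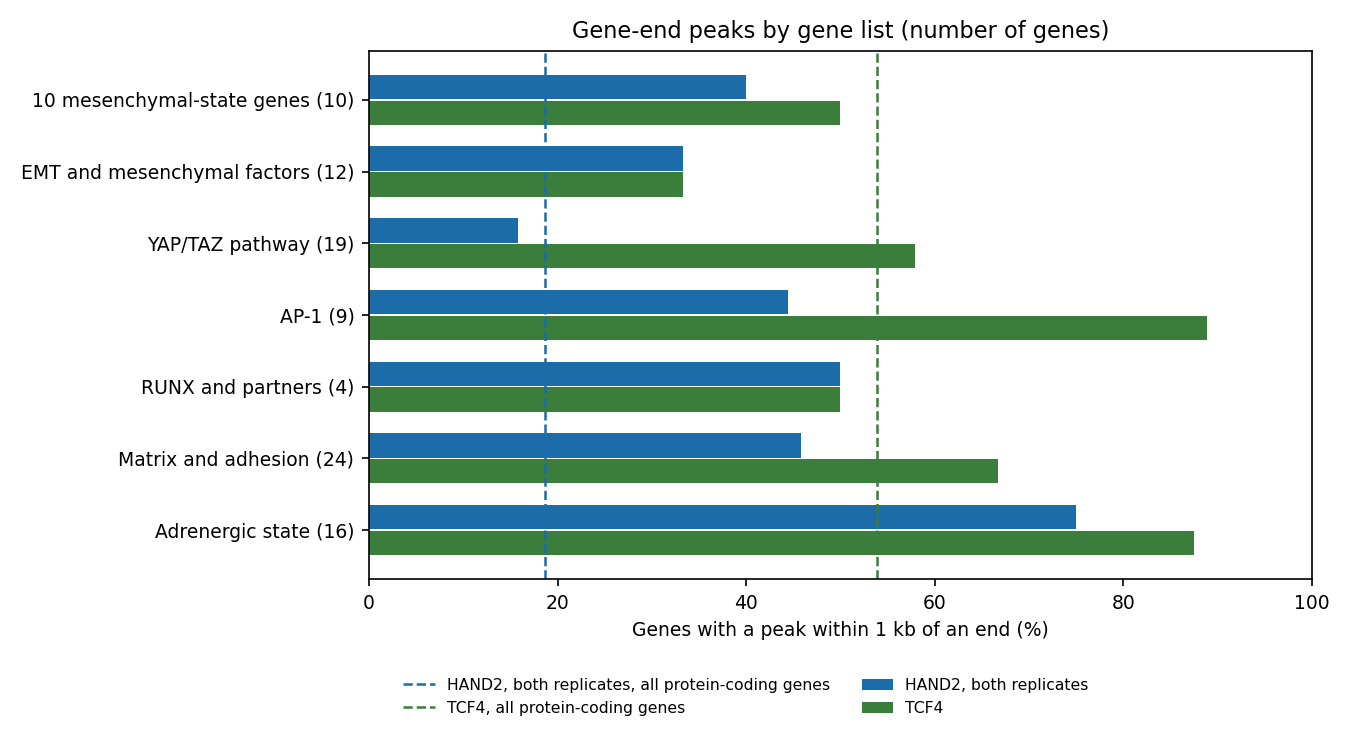
Share of genes (%) with a peak overlapping the 1 kb around an end, for HAND2 in both replicates at the same end and for TCF4, by gene list, with the number of genes in brackets. Dashed lines are the shares over all protein-coding genes, 18.7% for HAND2 and 53.9% for TCF4. The 10 mesenchymal genes stand at 40% and 50%, and the adrenergic list at 75.0% and 87.5%.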

How the data were processed

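The members and the gene lists were chosen with earlier results of these data known. Samples were grouped by the antibody and replicate number of their titles. bcl2fastq 2.17, Bowtie2 and MACS3 3.0.0a6 were run on hg38, per the submitters' processing notes, with options not given in the sources used here. The deposited lists, one per library, give for each peak a fold (a ratio over local background), −log10 p and −log10 q, and a score that was not used. The columns the authors added to 3 lists were not used either.

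Only chromosomes 1 to 22 and X were analysed, which dropped no HAND2 peak, 3 and 5 MEIS2 peaks and 7 TCF4 peaks. The whole pile-up behind each fold and p was recovered at a relative tolerance of 5e-05 for 96.4% of MEIS2 replicate 1 peaks and 100.0% of the other lists, and for 99.7% of 2471 peaks tested on simulated data. It gave exact 95% Poisson intervals, with the background held fixed, and the IgG fragments. The intervals cover counting error only, since duplicate fragments cannot be told from separate molecules here. The depth relative to IgG, which sets the IgG fragments, was inferred from the recovered backgrounds. It is the spacing at which the largest share of backgrounds above the lowest were near whole multiples. That share was 45.1% for MEIS2 replicate 2 and 64.6% to 71.1% for the other lists. Positions are 1-based, and gene positions and promoters come from RefSeq GRCh38.p14. The gene table has no strand, exons or UTRs. All 10 members are named with their gene-end peaks and their strongest peaks nearby, and up to 4 genes per further list by the lower HAND2 fold, plus any with MEIS2 in both replicates. The windows at transcript starts were added after the data were seen. No test was run: lists are read beside all protein-coding genes. Python 3.11.15, pandas 2.3.3 and scipy 1.17.1 were used.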

Additional observations from a re-analysis of the deposited data

How the results depend on the processing

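Of 69 values recomputed under other settings for 16 counts, 58 stayed within 1.5 times the main count. No paired analysis was possible because the results come from no test. With only the 5000 peaks of highest fold per library, the occupied gene ends fell to 0 for both HAND2 libraries and MEIS2 replicate 2, and to 1 for TCF4, while MEIS2 replicate 1, whose whole list is 9595 peaks, kept 2 of 3. For MEIS2 replicate 2, 500 bp windows or summits within 1 kb left 1 occupied gene, VIM, instead of 3. In that library a −log10 q of 5 or more lost the SNAI2 end. It left 22 of 36 summits nearby and 15 of 24 regions of its own (the setting for regions chosen after seeing the data). Requiring summits within 250 bp gave 10 places with HAND2 and TCF4 instead of 18, and 6 with all 3 factors instead of 11; the cause was not tested. Leaving out 1 replicate at a time, the occupied genes ranged from 4 to 6 for HAND2 (4 in both) and were 3 for MEIS2 either way (2 in both). Genes with every remaining library at an end stayed at 2 (also chosen after seeing the data). Leaving out a library cannot lower these counts of genes, so these values do not show how firm the counts are. Regions with HAND2 and TCF4 ranged from 17 to 20, and those with all 3 factors from 4 to 12, the lowest without MEIS2 replicate 1. The motif search under summits was not run, as no genome sequence was used. The inferred depth was lowest for MEIS2, and a site without a MEIS2 peak may hold MEIS2 below what these lists could detect.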
